A study of Mus musculus with 71 samples.

Results

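The loops described here are 471 strong long-range chromatin loops of mouse synovial sarcoma (SyS) tumors. They are the loops of the merged H3K27ac HiChIP list whose anchor midpoints lie at least 100 kb and less than 1 Mb apart and which carry at least 4 paired-end tags. They make up 471 of the 24244 loops of the list (1.94%), 2.65% of the loops in the same range of distance, and 6.54% of its 41574 tags. The loops were selected on these measured values, tags and distance, so both are given as description only. The tumors were those of hSS2 mice, in which a human SS18::SSX2 cDNA lies at Rosa26 behind a floxed stop and is switched on by TATCre protein injected into the hindlimb of young mice. HiChIP was made from 2 such tumors with an antibody against H3K27ac after digestion with MboI, and 1 merged list holds the loops of both, with no untreated or control tissue. Whole tumors were dissociated, so the cells could include macrophages, endothelium, muscle and fibroblasts beside the tumor cells.

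HiChIP joins fragments of DNA that touch each other in the nucleus and then captures the joined fragments that carry a chosen histone mark. H3K27ac marks active promoters and enhancers, so a loop in such a list joins parts of the genome of which at least one carries that mark. In SyS, the SS18::SSX fusion protein is part of a BAF-type chromatin remodeling complex, and developmental transcription factor genes are among those it is known to activate.

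Anchors of these loops lay near start sites or away from them, and the windows below show both kinds. Each is 150 bases of GRCm38 (mm10) written 5′ to 3′, with every CG in capitals, since CG content is where they differed. The first are the bases just before a RefSeq start site that lies inside an anchor.
Vegfa promoter, chr17:46032378-46032527, minus strand: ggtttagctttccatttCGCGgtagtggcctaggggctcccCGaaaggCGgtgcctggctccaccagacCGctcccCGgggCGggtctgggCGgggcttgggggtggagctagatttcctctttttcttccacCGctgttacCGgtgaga
Meis1 promoter, chr11:19018970-19019119, minus strand: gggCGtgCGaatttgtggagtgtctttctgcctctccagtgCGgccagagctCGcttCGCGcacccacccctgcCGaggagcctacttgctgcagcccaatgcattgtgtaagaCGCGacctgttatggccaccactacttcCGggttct
Irx2 promoter, chr13:72628670-72628819, plus strand: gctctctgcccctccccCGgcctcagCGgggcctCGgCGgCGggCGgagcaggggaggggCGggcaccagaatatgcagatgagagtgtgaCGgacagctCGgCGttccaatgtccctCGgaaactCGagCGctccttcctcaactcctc
Sox2 promoter, chr3:34649845-34649994, plus strand: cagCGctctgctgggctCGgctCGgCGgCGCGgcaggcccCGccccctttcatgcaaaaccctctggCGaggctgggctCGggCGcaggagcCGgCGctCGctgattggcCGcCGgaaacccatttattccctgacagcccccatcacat
Foxp1 promoter at the right anchor, chr6:99520994-99521143, minus strand: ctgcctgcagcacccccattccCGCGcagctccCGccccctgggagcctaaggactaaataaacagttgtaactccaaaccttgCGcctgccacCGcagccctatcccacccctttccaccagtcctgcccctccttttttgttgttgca
Foxp1 promoter at the left anchor, chr6:99028299-99028448, minus strand: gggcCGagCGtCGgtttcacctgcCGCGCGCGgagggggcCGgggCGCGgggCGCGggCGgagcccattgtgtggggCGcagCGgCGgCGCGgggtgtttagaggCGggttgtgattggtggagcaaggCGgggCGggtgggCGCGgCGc
These windows held 10, 10, 13, 15, 5 and 24 CG. The next are the middle of anchors with no start site within 2 kb, taken from among the strongest loops of that kind.
Hes1 far anchor on the left with 28 tags, chr16:29893315-29893464, plus strand: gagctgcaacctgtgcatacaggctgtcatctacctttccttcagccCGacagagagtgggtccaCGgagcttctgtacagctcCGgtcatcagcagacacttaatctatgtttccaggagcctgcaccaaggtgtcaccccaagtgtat
Hes1 far anchor on the right with 20 tags, chr16:30188067-30188216, plus strand: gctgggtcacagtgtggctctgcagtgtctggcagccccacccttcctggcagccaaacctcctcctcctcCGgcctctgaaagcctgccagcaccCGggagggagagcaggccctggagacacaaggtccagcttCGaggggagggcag
Hes1 far anchor on the left with 19 tags, chr16:29883003-29883152, plus strand: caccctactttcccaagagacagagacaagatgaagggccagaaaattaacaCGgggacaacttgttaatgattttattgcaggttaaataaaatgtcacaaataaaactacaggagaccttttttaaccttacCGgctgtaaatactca
Zfp703 far anchor with 13 tags, chr8:26688831-26688980, plus strand: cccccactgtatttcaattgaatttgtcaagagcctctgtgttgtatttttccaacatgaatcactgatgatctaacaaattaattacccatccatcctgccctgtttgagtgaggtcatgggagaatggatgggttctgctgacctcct
Nfib far anchor with 11 tags, chr4:81580414-81580563, plus strand: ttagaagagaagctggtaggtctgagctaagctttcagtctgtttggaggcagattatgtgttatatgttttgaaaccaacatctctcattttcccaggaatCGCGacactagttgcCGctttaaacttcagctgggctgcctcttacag
These held 3, 3, 2, 0 and 3 CG, fewer than any of the promoter windows shown. The kinds were not fully apart, since the middle of a far anchor of Hoxc10 and Hoxc5, at chr15:103305084-103305233, held 25. Middles of far anchors of Foxp4 and Fscn1, not shown, held 7 and 5. Those of Sdk2 and Phlda1 held 0 and 1, and further ones of Hes1 held 1 and 0.

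Most of the 471 loops were near the lower limit of tags. There were 215 with 4 tags, 73 with 5, 110 with 6 or 7, 42 with 8 or 9 and 31 with 10 or more, and the highest count was 28. Just outside the rule stood 685 loops of the same range of distance with 3 tags. The median distance was 214 kb, with quartiles of 166 and 307 kb. The shortest of the 471 spanned 100.1 kb, and the longest strong loop below the limit spanned 99.96 kb with 8 tags. The longest spanned 942 kb, and 6 loops of at least 4 tags lay beyond 1 Mb, each with 4 tags, the shortest of them at 1014 kb. The list gave an FDR of 0 for 31 of the loops and under 0.001 for 364 of them, and the highest was 0.0480.

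**Figure D1:**
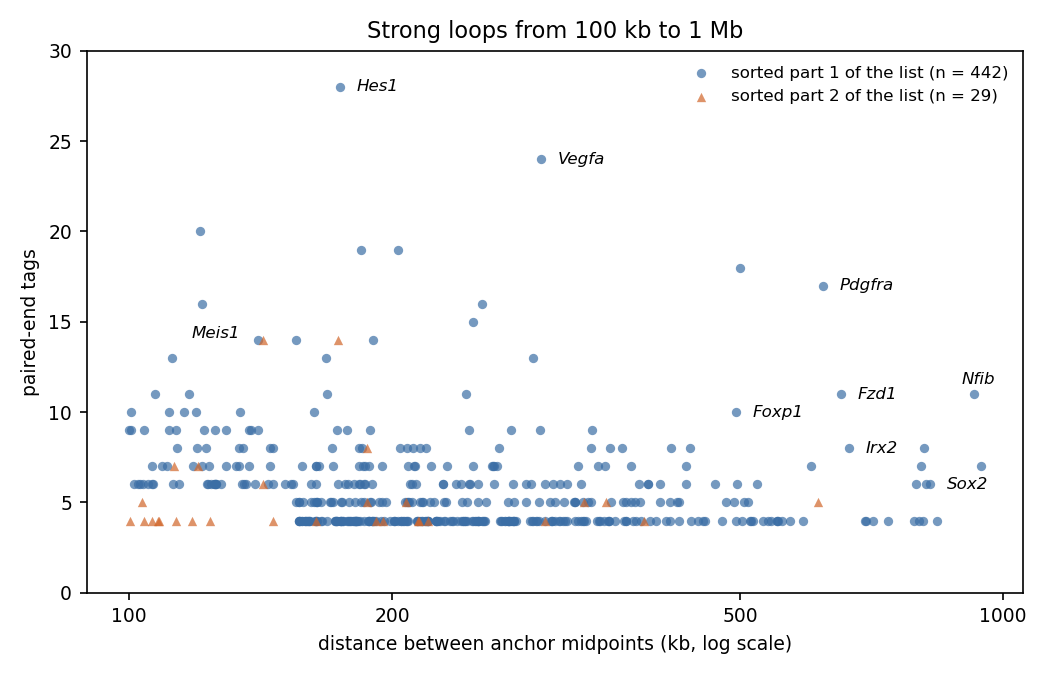
Paired-end tags (vertical axis) against the distance between anchor midpoints in kb (horizontal axis, log scale) for all 471 loops, 1 point per loop, with circles for the first and triangles for the second sorted part of the list. Names mark the strongest loop of a gene, such as Hes1 with 28 tags at 174 kb and Nfib with 11 tags at 927 kb, and no circle lies under 6 tags below 150 kb.

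The list runs through the chromosomes from start to end 2 times, in what are called its first and second part, and neither could be tied to a tumor. The first part held 13683 loops and 442 of the strong ones, and the second 10561 loops and 29. The parts also differed in the lowest count they list. From 100 to 150 kb the first part listed 64 loops, all with at least 6 tags, whereas the second listed 1394, of which 1170 had a single tag. Tags and distance had a Spearman rho of -0.25 over the 471 loops, which share their libraries and this limit, and of 0.0523 over the 265 loops from 200 kb on. Results below rest mostly on the first part, and values by part are given where they were computed.

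The strongest group of loops met at the promoter of Hes1, a basic helix-loop-helix repressor downstream of Notch signalling (chr16:30064384-30067796). Its anchor, 9.61 kb wide, ended 13 of the strong loops with 162 tags, the most of any anchor. The first part of the list held 7 loops to the left of the gene with 95 tags and 2 to the right with 33. The second part held 3 to the left with 27 tags and 1 to the right with 7. The strongest joined the promoter to chr16:29891911-29894870, 171 kb to the left, with 28 tags, and the second part listed a loop at the overlapping anchor with 14. The anchor 124 kb to the right had 20 tags in the first part and 7 in the second. The anchor 185 kb to the left had 7 and 8. These 3 contacts were thus strong in both parts. The loop of 19 tags to chr16:29882176-29883981 and that of 13 tags to chr16:30234050-30237248 had no loop at an overlapping anchor in the other part. The former abutted the anchor chr16:29878691-29882175 of the second part's loop of 8 tags, so its lack of a partner rests on the rule that anchors share a base. No protein-coding start site lay between the Hes1 promoter and the left anchor of 28 tags. The only shorter loop at the promoter, to the noncoding gene 4632428C04Rik at 58.6 kb, had 38 tags. Left and right far anchors were also joined to each other, by a loop of 4 tags over 305 kb. In all, 19 strong loops and 12 anchors formed 1 connected group around Hes1.

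**Figure D2:**
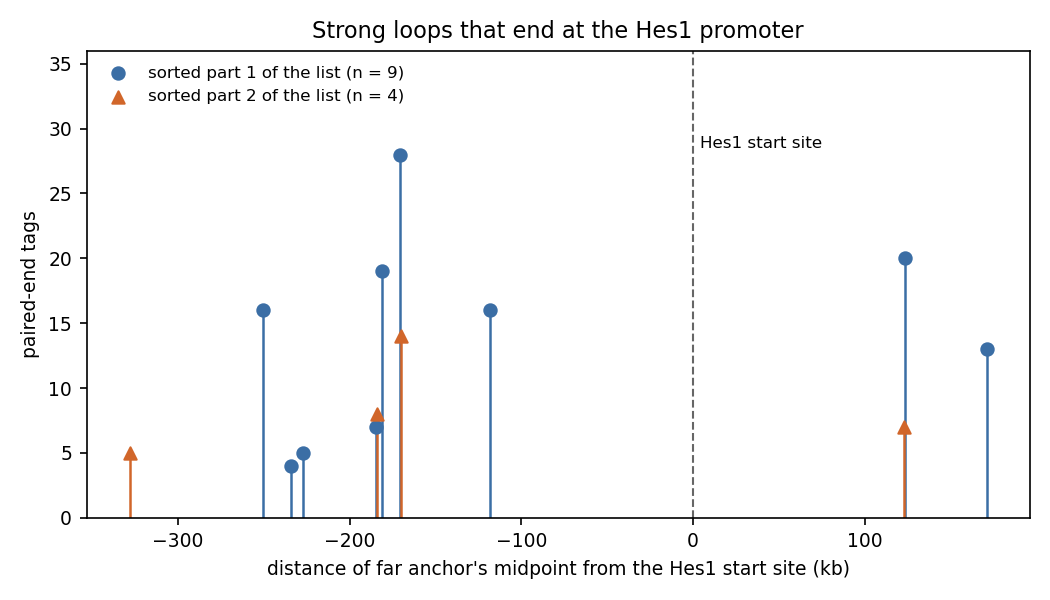
Tags (vertical axis) of the 13 strong loops that end at the Hes1 promoter against the distance in kb of the far anchor's midpoint from the Hes1 start site (horizontal axis, negative to the left). Circles are loops of the first sorted part and triangles those of the second, and the contacts near -171, -185 and 124 kb appear in both.

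The next group lay at the HoxC cluster, whose genes are homeobox factors that set position along the body axis. It held 17 loops and 11 anchors, and most of its loops ended at the promoter of Smug1, which encodes a DNA glycosylase of base excision repair. The Smug1 anchor ended 9 strong loops with 75 tags. The anchor at Hoxc10 and a start site of Hoxc5 reached it with 19 tags over 203 kb. The anchor at Hoxc9 and Mir196a-2 reached it with 14 tags over 190 kb. The second part of the list had 8 tags there in sum, with 5 in its strongest loop. Hoxc8 followed with 9 tags, Hoxc12 with 7, the anchor at Hoxc5 and Hoxc6 with 7, Hoxc4 with 6 and Hoxc11 with 4. The same Hoxc10 anchor reached the promoters of Cbx5, which encodes heterochromatin protein 1 alpha, and Hnrnpa1, an RNA-binding protein, with 9 tags over 274 kb. The Hoxc9 anchor reached them with 7 tags and the Hoxc11 anchor with 5. Neighboring Hox genes share anchors, so these loops are not separate observations of each gene. Elsewhere, Hoxa2 was joined to Cbx3 and Hnrnpa2b1 over 695 kb with 4 tags, so that Cbx and Hnrnp promoters stood at the far end of both.

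Further loops ended at genes of other developmental factors, some of them named because they were among the longest. Irx1 and Irx2, homeobox genes of 1 family, were joined to each other over 666 kb with 8 tags, with no protein-coding start site between. Meis1, a cofactor of Hox proteins, was joined to 8430419K02Rik over 142 kb with 14 tags, and this loop was in the second part alone. The first part listed no loop under 6 tags from 100 to 150 kb, so a weaker contact would not appear in it. The Tbx3 locus, a T-box factor gene, reached the noncoding gene Gm43782 with 8 tags over 811 kb, 7 tags over 805 kb and 6 tags over 794 kb. Sox2, a high-mobility-group factor of stem cells, was joined to chr3:35470203-35478651 over 824 kb with 6 tags, with no protein-coding start site between and 1 tag in the other part. The longest of the 471 joined Nfib, a nuclear factor I gene, to anchors 942 and 927 kb away with 7 and 11 tags. All of these except the Meis1 loop were from the first part of the list.

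Genes of growth factors, their receptors and their pathways also had strong loops, and those named here are examples, not a counted list. Vegfa, the vascular growth factor gene, was joined to 1600014C23Rik over 296 kb with 24 tags, the second highest count of the 471, and the second part listed 2 tags there. It had 3 other strong loops, the highest with 7 tags to the anchor at Polh and Xpo5. Pdgfra, the platelet-derived growth factor receptor alpha gene, was joined to Fip1l1 and Scfd2 over 622 kb with 17 tags and to Chic2 over 111 kb with 9. Pdgfa, which encodes a ligand of that receptor, had 3 strong loops with 8, 6 and 5 tags. Fzd1, a Wnt receptor gene, was joined to Cyp51 over 653 kb with 11 tags. Lef1, a transcription factor gene of the Wnt pathway, had 3 strong loops with 9, 7 and 4 tags. Ptch1, the Hedgehog receptor gene, had 6 with 32 tags in all. Jag1, a Notch ligand gene, had 2 with 5 and 4 tags, and Bmp4 had 1 of 8 tags with no other anchor of the list between its ends.

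A different kind of group lay in gene-dense regions. The group around Pop7, Trip6 and Mepce on chromosome 5 held 13 loops with at most 9 tags in a region of 45 protein-coding genes. That around Sf3a2 and Mknk2 on chromosome 10 held 9 loops with at most 9 tags and 55 genes. That around Bag6 on chromosome 17 held 7 loops with at most 11 tags and 34 genes, and that around Prmt1 and Rpl13a on chromosome 7 held 6 with at most 10 tags and 44 genes. By contrast, the Hes1 region held 1 protein-coding gene. In all, the 471 loops had 712 merged anchors and formed 272 connected groups, of which 187 (68.8%) were a single loop. The 12 groups with at least 5 loops held 106 of the loops.

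Strong loops were unevenly spread over chromosomes. Chromosome 17 had 0.432 per Mb and chromosome 15 had 0.404, whereas chromosome 19 had 0.0651 and X had 0.0292. Of the loops from 100 kb to 1 Mb, 4.88% were strong on chromosome 5 (Wilson 95% interval 3.80 to 6.24, 59 of 1210) and 0.518% on chromosome 19 (0.202 to 1.32, 4 of 772). All 59 on chromosome 5 were of the first part, and the second had 0 of its 29 there, which allows a share of up to 10.3%. Chromosome 9 had 0 of 595, which allows a share of up to 0.504%. It had 20 loops with at least 4 tags, all shorter than 100 kb. Strong loops made up 3.23% of all loops in the first part and 0.275% in the second. Apart from chromosome 5, no chromosome was split by part, so how far part bears on the chromosome shares was not tested. The intervals of this paragraph and the others below cover counting error only.

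Both anchors lay near a transcription start site (TSS) in most strong loops. With a window of 2 kb and all genes, this held for 359 of the 471 (76.2%, 72.2 to 79.8), 1 anchor was near a TSS in 104 (22.1%, 18.6 to 26.0) and neither was in 8 (1.70%, 0.863 to 3.32). Of loops at the same distances with 1 to 3 tags, 72.7% had both (72.1 to 73.4, n = 17325). This order did not hold within the parts. In the first part the shares were 79.0% for the strong loops (74.9 to 82.5, n = 442) and 82.7% for those with 1 to 3 tags (81.9 to 83.5, n = 8756). In the second they were 34.5% (19.9 to 52.7, n = 29) and 62.5% (61.5 to 63.6, n = 8569). Of loops at the same distances with 2 or 3 tags, 80.7% had both (79.4 to 82.0, n = 3354), above the 76.2% of the strong loops. By part, their shares were 85.7% (84.3 to 86.9, n = 2680) in the first and 61.1% (57.4 to 64.7, n = 674) in the second. Of the 359 loops with both, 321 had protein-coding genes at both ends. Only 4 loops joined start sites of 1 gene, among them those of Foxp1 over 495 kb with 10 tags and Mecom over 496 kb with 6, both genes of transcription factors.

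For most of the 104 loops with 1 anchor away from start sites, the nearest protein-coding gene was not at the looped promoter. The rule set anchor midpoints at least 100 kb apart, which leaves room for nearer genes, and no share for weaker loops is given here. The protein-coding TSS nearest to the distal anchor belonged to a gene at the looped promoter in 28 (26.9%, 19.3 to 36.2). This was 29.5% of the 95 whose promoter anchor had a protein-coding gene. In the first part the nearest TSS did so in 22 of 89 (24.7%, 16.9 to 34.6) and in the second in 6 of 15 (19.8 to 64.3%). Genes were matched by name, so this TSS could be another than the looped one. For Mecom it lay 8.055 kb from the distal anchor of a loop of 262 kb. A nearer gene may lie outside the loop, and 40 of the 104 (38.5%, 29.7 to 48.1) had no protein-coding start site between their anchors. It was that of the looped gene for Hes1 at the left anchor with 28 tags, Zfp703, Sdk2, Efna5 and Nr2f2. It was another gene for Nfib, whose distal anchor of 11 tags lay 135 kb from Mpdz, for Phlda1, whose distal anchor lay 47.3 kb from Krr1 with no protein-coding start site between the anchors, and for Ccnd2, a cyclin gene, whose distal anchor lay 17.8 kb from Parp11. Some distal anchors lay only just outside the window of 2 kb. That of Sp3 lay 4.66 kb from Sp9, and that of Hoxc10 and Hoxc5 lay 4.28 kb from Gpr84. The median distance to the nearest protein-coding TSS was 79.6 kb. Loops also shared distal anchors, of which 90 were distinct. The distal anchor's midpoint lay between annotated genes in 70 of the loops, in an intron in 34 and in an exon in 0, which allows a share of up to 2.88%. Loops with 1 promoter crossed a median of 1 protein-coding gene, and loops with both crossed 5.

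Strong loops had fewer genes between their anchors than weaker ones at the longer distances. In the first part, from 500 kb to 1 Mb, the 36 strong loops had a median of 5 protein-coding genes between their anchors and the 670 loops with 2 or 3 tags had 12. The median distances of these sets were 612 and 645 kb. From 200 to 500 kb the medians were 4 genes (n = 220) and 7 (n = 1646), at median distances of 272 and 303 kb. From 150 to 200 kb they were 4 (n = 122) and 5 (n = 364). In the second part, from 200 to 500 kb, they were 1.5 (n = 8) and 4 (n = 257), and 1 strong loop lay beyond 500 kb. No test was made of these medians, since loops of 1 region share their genes.

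Strong loops were listed again in the other part of the list more often than weaker ones. A loop in the other part overlapped both anchors for 133 of the 471 (28.2%, 24.4 to 32.5). For loops of the same range with 2 or 3 tags it was 11.7% (10.7 to 12.9, n = 3354), and for those with 1 to 3 tags 7.30% (6.92 to 7.70, n = 17325). By part, the shares were 27.8% (23.9 to 32.2, n = 442) against 11.8% (10.6 to 13.03, n = 2680) for 2 or 3 tags in the first, and 34.5% (19.9 to 52.7, n = 29) against 11.7% (9.51 to 14.4, n = 674) in the second. By distance, the first part had no loop of 2 or 3 tags from 100 to 150 kb to compare, and 22 of its 64 strong loops there were listed again. From 150 to 200 kb its shares were 32.8% (25.1 to 41.5, n = 122) against 17.9% (14.3 to 22.1, n = 364), at median distances of 175 and 184 kb. From 200 to 500 kb they were 25.5% (20.2 to 31.6, n = 220) against 214 of 1646 (11.5 to 14.7%), at median distances of 272 and 303 kb. From 500 kb to 1 Mb they were 13.9% (6.08 to 28.7, n = 36) against 5.37% (3.91 to 7.35, n = 670), and the intervals overlapped. The partner loops were weak, with a median of 1 tag in sum. A partner of at least 4 tags was found for 20 loops, which are 10 contacts seen from both parts, among them 3 of Hes1, 2 of Smug1 and 1 of Efna5. Anchor width, which sets the chance of an overlap, had a median of 2.95 kb for strong loops and 2.72 kb for loops with 2 or 3 tags.

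**Figure D3:**
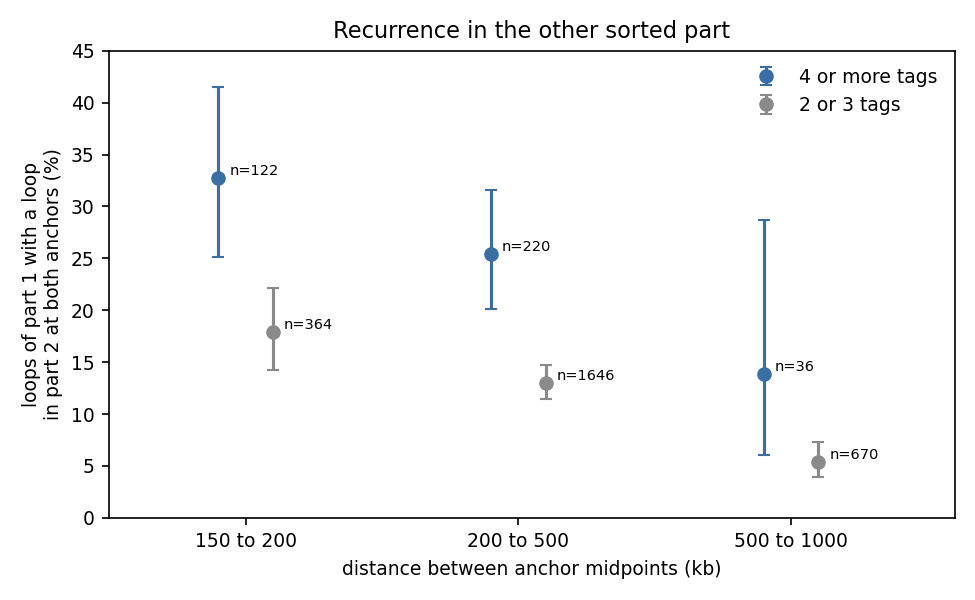
Share of loops of the first sorted part (vertical axis, %) with a loop at both anchors in the second part, by distance between anchors in kb (horizontal axis), for loops with 4 or more tags and with 2 or 3 tags. Bars are Wilson 95% intervals and n is the number of loops. The strong loops lie higher at the distances shown, at 32.8% against 17.9% from 150 to 200 kb and 13.9% against 5.37% from 500 kb on, and the bars overlap in the last.

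Anchors of strong loops also took part in loops of other lengths. Of the 712 merged anchors, 282 (39.6%, 36.1 to 43.2) had a loop shorter than 100 kb. Of 11505 anchors whose loops in this range were all weak, 10.1% did (9.55 to 10.6). A loop of 1 Mb or more ended at 465 of the 712 (65.3%, 61.7 to 68.7) and at 36.8% of the anchors of weak loops only (35.96 to 37.7). These shares were not split by part. The first part, which held most strong loops, listed 812 loops under 100 kb and 3673 of 1 Mb or more. The second part listed 432 and 1531. Before merging, anchors had a median width of 2.95 kb for strong loops and 2.61 kb for loops with 1 to 3 tags. The effect of part and width was not tested.

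CG content separated the kinds of anchor. The ratio of observed to expected CpG had a median of 0.603 (quartiles 0.498 and 0.702) over 625 strong-loop anchors near a TSS and of 0.310 (0.248 and 0.409) over the 104 others. For loops of 1 to 3 tags the distal median was 0.246 (0.184 and 0.327, n = 3290), and for strong loops under 100 kb it was 0.325 (0.246 and 0.461, n = 201). The quartile ranges of these distal anchors overlapped. The strong distal anchors were wider than the weak, with medians of 2.72 and 2.24 kb. The letters TGANTCA, the AP-1 consensus, which reads the same on both strands, occurred 0.285 times per kb in the strong distal anchors and 0.300 times per kb in those of 1 to 3 tags. They occurred in 52.9% and 49.7% of these anchors and in 46.5% of all anchors of the list. GATC, the MboI site, had medians of 1.73 and 1.80 per kb in the same 2 sets.

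**Figure D4:**
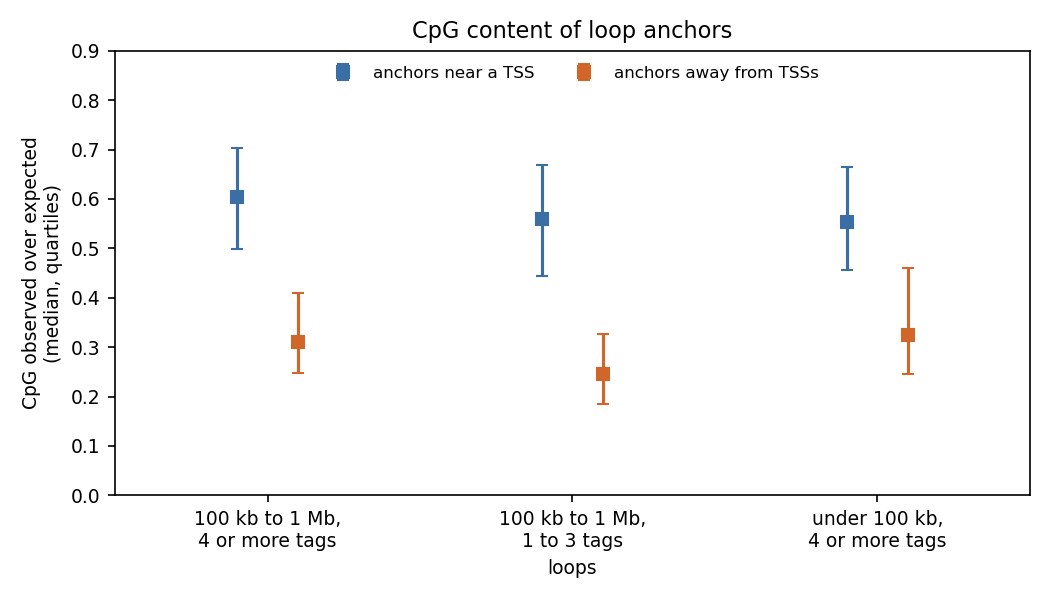
Ratio of observed to expected CpG (vertical axis) of anchors near a TSS and away from TSSs, for 3 sets of loops (horizontal axis). Squares are medians and bars run from the lower to the upper quartile. In each set the anchors near a TSS lie higher, at 0.603 against 0.310 for the strong loops from 100 kb to 1 Mb.

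Matches to the core motif of CTCF, the factor that stops loop extrusion by cohesin, were counted in the anchors. The 13-letter core, with A as its last letter, searched on both strands, was in 11 of 729 anchors (1.51%, 0.845 to 2.68) and in 1.32% of all anchors of the list, and in no strong loop at both ends. This form is narrower than the usual consensus, whose last letter is A or G, and with either letter the core was in 22 of 729 anchors (3.02%, 2.00 to 4.53) and in 2.74% of all anchors. With anchors widened by 5 kb on each side and the first 11 letters of the core, 26 strong loops had motifs of 1 direction at each end. They pointed toward each other in 12 (46.2%, 28.8 to 64.5), against 27.3% (24.5 to 30.3, n = 901) of loops with 1 to 3 tags. For loops with 2 or 3 tags it was 32.3% (25.6 to 39.8, n = 164), and the strong loops' interval overlapped both. At the same widening, they did so in 0 of 2 strong loops with the 13-letter core and in 5 of 8 with A or G last. The sites of the loops at Cdx2, a homeobox gene, and Sox2 are shown 5′ to 3′ on the strand of the match, with the 11 letters in capitals, because they are among the strongest of these 12.
Cdx2 loop, left, chr5:146940333-146940351, plus strand: ctcaCCACTAGATGGcact
Cdx2 loop, right, chr5:147301292-147301310, minus strand: tcccCCACCAGGTGGtctg
Sox2 loop, left, chr3:34647883-34647901, plus strand: tccaCCAGCAGGGGGcgca
Sox2 loop, right, chr3:35480238-35480256, minus strand: aaggCCACCAGATGGaact
The Cdx2 loop had 8 tags over 366 kb and the Sox2 loop 6 tags over 824 kb. The left site of each lay inside the anchor, and the right sites lay outside it, within 5 kb. A further site of the same direction lay near the right end of the Sox2 loop.

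Shares of looped genes with a strong loop differed between gene lists, Hox genes having the highest of the lists with at least 5 looped genes. A strong loop ended near 712 of the 10035 protein-coding genes near any loop (7.10%, 6.61 to 7.61). The share was 14 of 34 for Hox genes (41.2%, 26.4 to 57.8) and 20 of 100 for other patterning transcription factors (13.3 to 28.9%). Of the 14 Hox genes, 8 were HoxC genes of the group above. The Hox share was 35.3% with the first part alone, and 11.8% both with the second part alone and with loops of at least 8 tags. Fewer loops reach fewer genes, and the share of all protein-coding genes is not given for these smaller sets. The share was 8 of 61 for signalling genes (13.1%, 6.80 to 23.8), led by Hes1, Ptch1 and Fzd1. This interval held the share of all protein-coding genes. For genes of chromatin and loop machinery the share was 8 of 52 (15.4%, 8.01 to 27.5), led by Cbx5. These included Ss18, the mouse gene of one fusion partner, joined to Kctd1 over 468 kb with 6 tags. Of 10 looped extracellular matrix genes, 0 had a strong loop, which allows a share of up to 30%. Genes with more loops have more chances to be counted, and genes of 1 anchor are counted together, so these shares were not tested.

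The study's own categories were closer to the whole. Sarcomagenesis activated transcription (SAT) genes had a strong loop in 12 of 104 (11.5%, 6.72 to 19.1), among them Lef1, Irx1, Irx2, Sox2 and Hmga2. Maintained active transcription (MAT) genes had one in 23 of 283 (8.13%, 5.48 to 11.9), led by Ywhaz. Both intervals held the share of all protein-coding genes. Of cell type markers, 0 of 10 macrophage genes were near any loop, and 0 of 5 looped endothelial genes had a strong one, which allows a share of up to 60%. Of muscle markers 2 were looped, with 0 at a strong loop. Of fibroblast markers Pdgfra alone was looped, and it had the strong loops given above. Of all annotated protein-coding genes, 10035 of 21924 (45.8%) were near any loop. Of genes related to synovial sarcoma, Sox2 and Pdgfa had strong loops, of 6 looped. Fewer cells of a type and fewer contacts per cell cannot be told apart in these whole tumors.

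**Figure D5:**
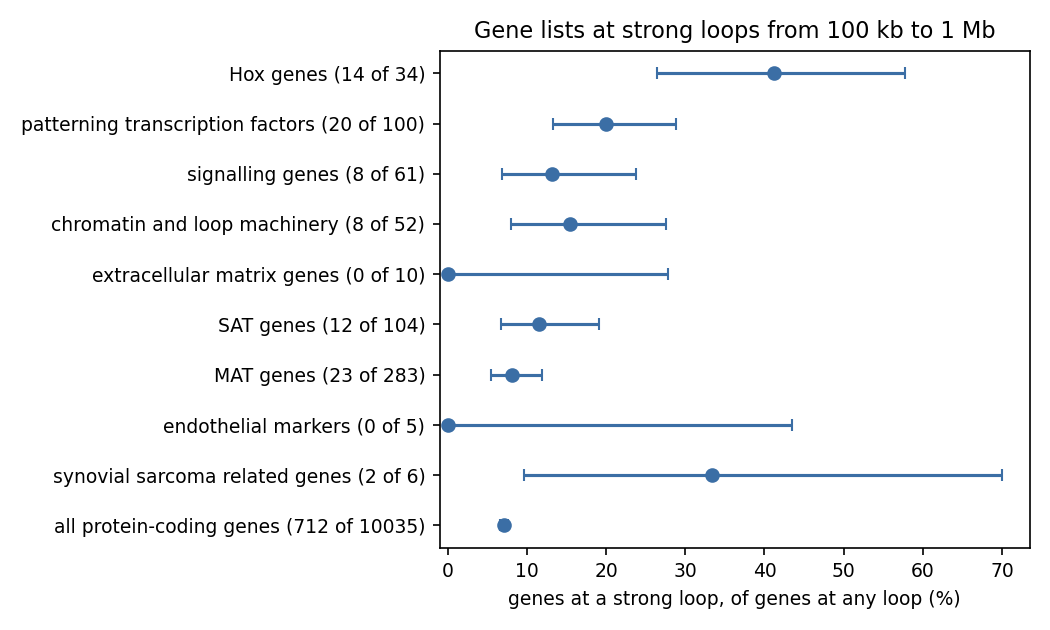
Share of genes near any loop that had a strong loop from 100 kb to 1 Mb (horizontal axis, %), by gene list (vertical axis, with counts), for lists with at least 5 looped genes. Bars are Wilson 95% intervals. Hox genes stand at 41.2% and extracellular matrix genes at 0%, and all protein-coding genes at 7.10%.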

How the data were processed

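H3K27ac HiChIP was made from 2 hSS2 tumors. Per the study's methods, the authors aligned read pairs to mm10 with HiC-Pro and called loops with hichipper. A legend of the study's supplement names Mango for the calls, with an FDR limit of 0.01, stricter than that of the methods. Of the 471 loops, 63 (13.4%) had an FDR of 0.01 or more. The deposited list holds, for every loop, a raw count of its paired-end tags, with the loops of both tumors merged in a way not given in the sources used here. It also gives an FDR, a p-value adjusted by the authors' caller. All columns were used, and the depth was 41574 tags over 24244 loops, so that most loops rest on few tags. No value per tumor was used, so there is no replicate error and no test between samples. The members and gene lists were chosen with earlier results of these data known.

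Positions were converted to start at 1. Start sites were those of GENCODE vM21, and sequences were read from GRCm38.p6, whose promoters are RefSeq's. Anchors were merged where they overlapped by 1 base. A loop recurred where both of its anchors overlapped those of a loop in the other sorted part. SAT and MAT genes were those of the study's source data. Shares have Wilson 95% intervals, and 0 of n was read as at most 3 of n. The genes named were those of the 10 loops with most tags, the 5 longest, the 10 anchors with most loops, loops joining genes of 1 name stem, up to 8 genes per list by summed tags, recurring loops and loops with facing CTCF motifs, and others were chosen after their values were seen. The AP-1 search, the comparison of distances within each part, the limit of 150 kb and the CTCF core ending in A or G were added after seeing the data. Functions were checked on simulated loops. Computations ran in Python 3.11.15 with scipy 1.17.1 for intervals, pandas 2.3.3 and numpy 2.4.6, and figures were drawn with matplotlib 3.10.9. Other assays of the series were not analysed here, and 1 locus is not reported here.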

Additional observations from a re-analysis of the deposited data

How the results depend on the processing

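Of 81 recomputed values, 53 stayed within the interval, quartiles or 1.5 times of the reported value. Counting loops at the same anchors once could change nothing, since no anchors were listed again, and its 11 values are not among the 81. With at least 8 tags there were 73 loops, both anchors near a TSS in 69.9%, recurrence in 41.1%, single-loop groups at 82.4%, the nearest gene looped in 36.4%, Hox genes at 11.8% and a rho of tags and distance of -0.0714. In the second part alone these were 29 loops, 34.5%, 34.5%, 81.8%, 40.0%, 11.8% and 0.0793, with 0% on chromosome 5 and 0% of loops joining 1 family. From 200 kb on there were 265 loops, single-loop groups at 74.4% and a rho of 0.0523. With FDR under 0.001 rho was -0.14. Without Hox clusters, the Hox share was 0% by construction. The other Hox shares are of all looped Hox genes, so smaller sets of loops reach fewer of them. Both anchors were near a TSS in 80.7% with a window of 5 kb and in 68.2% with protein-coding genes only. Recurrence was 37.2% for midpoints within 10 kb. The CTCF core was in 7.27% of anchors widened by 5 kb, in 5.76% with 11 letters and, added after seeing the data, in 3.02% when it ended in A or G. With all genes, the nearest TSS belonged to a gene at the looped promoter in 3.85%. The cause of these changes was not tested. No paired analysis was possible because the list is merged, and no tumor could be left out. At this depth, a loop of 4 tags has no replicate check.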
